A study of Mus musculus with 6 samples.

Results

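Metallothioneins are small cysteine-rich proteins that bind zinc and copper, and they buffer the free zinc of the cytosol. Their genes are switched on by MTF1, a zinc finger factor that senses zinc and binds metal response elements in promoters. Zinc moves into the cytosol through ZIP transporters (Slc39a genes) and out of it, across the plasma membrane or into organelles, through ZnT transporters (Slc30a genes). In the ovary, zinc is known for its role in oocyte maturation, and granulosa cells, which line the follicle around the oocyte, are a source of steroid hormones.

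The genes described here are 2 metallothionein genes (Mt1 and Mt2), the sensor gene Mtf1, 2 exporter genes (Slc30a1 and Slc30a5) and 4 importer genes (Slc39a1, Slc39a7, Slc39a10 and Slc39a14). They are 9 of the 27151 genes in the deposited table. They were chosen by name with the difference in FPKM between the GSK4112 and control libraries already known, so their differences below are a description and not a test. Of the 9 genes, 7 had a mean of at least 1 FPKM (fragments scaled to exon length and library total) over the 6 libraries and entered the fit across 12181 genes. Mt2 and Slc39a7 did not.

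RNA came from mouse ovarian granulosa cells taken by puncturing follicles, in 3 control and 3 GSK4112 libraries. GSK4112 is a synthetic agonist of NR1D1 (REV-ERBα), a repressor within the circadian clock. Both groups had 24 h of culture with serum and 12 h of serum starvation, followed by 24 h in which the GSK4112 group alone received the agonist; fresh medium was given every 12 h. The design text speaks of treatment in vivo, while the protocol describes cultured cells. No source used here gives the genotype, strain or age of the mice, or says that replicates were separate cultures or animals, so the spread between libraries may be technical.

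The low FPKM values fitted whole fragments for library totals of 16559256 to 18158273 fragments, so 1 fragment in 1 kb of exon is worth 0.0551 to 0.0604 FPKM. Of 14 granulosa markers, 12 passed the filter on low values. All 14 together summed to 4182, 6752 and 6453 FPKM in control replicates 1, 2 and 3. With GSK4112 they summed to 3579, 5388 and 5870 FPKM, so replicate 1 was the lowest in each group. Of the 12 that passed, 11 had a mean log2 level below control and 1 above. Their median log2 difference was -0.158 (0.0543 over all genes tested). Limma called 1 lower, Fst, the gene of the activin antagonist follistatin (73.57 ± 15.39 and 24.01 ± 2.38 FPKM, mean ± SD, n = 3 per group, control first, adjusted p = 0.0187). With a block for the replicate number, Inhba, an activin and inhibin subunit gene (334.7 ± 31.85 and 124.1 ± 71.71), was called lower as well, and Kitl, the KIT ligand gene (34.53 ± 6.79 and 79.14 ± 16.04), higher. Cyp11a1, of the first step of steroid synthesis, was at 751 ± 171.3 and 418.2 ± 28.98 FPKM, with all GSK4112 libraries below control but no call in either fit. Over all genes tested limma called 0.624% lower, and with the block 3.82% lower and 3.07% higher. Inhba, Kitl and Cyp11a1 are named after their values were seen. The part of these marker differences in the results below was not tested. Hsd3b1, of steroid synthesis, was at 2188 ± 1053 and 2072 ± 786.2 FPKM. It was at 982.2 and 1181 FPKM in the replicate 1 libraries and at 2366 to 2928 in the others. Inha, a defining inhibin subunit gene, was at 2036 ± 178.5 and 1892 ± 461 FPKM, but the aromatase gene Cyp19a1 was at 0.0727 ± 0.0707 and 0.0862 ± 0.0763. Replicate 1 of each group lay away from replicates 2 and 3 on the first principal component. Control replicates 1, 2 and 3 were at -38.59, 1.05 and 2.29, and GSK4112 replicates 1, 2 and 3 at -13.38, 26.56 and 22.07. At each replicate number, which no label says is a pairing, the GSK4112 library lay above the control library of that number. GSK4112 replicate 1 lay below control replicates 2 and 3, so the groups overlapped on this component. Theca and stroma markers, of which 3 of 8 passed the filter, summed to 266.8 and 144.6 FPKM in the replicate 1 libraries and to 56.15 to 89.93 in the others. Most of each sum was Acta2, at 234.5 and 125.4 FPKM in the replicate 1 libraries and 44.47 to 76.91 in the others. The theca enzyme gene Cyp17a1 was under 0.1 FPKM in every library. Immune markers (2 of 6 passed) summed to 39.78 and 37.01 FPKM in the replicate 1 libraries and to 6.80 to 18.37 in the others. Most of each sum was Lyz2, at 34.19 and 30.07 FPKM in the replicate 1 libraries and 4.29 to 12.42 in the others. Cd68, the other tested immune marker, was at 4.47, 2.67 and 2.20 FPKM in control replicates 1, 2 and 3. With GSK4112 it was at 5.69, 4.56 and 5.54 FPKM, all above control, as in 15.7% of all genes (limma adjusted p = 0.201). The part of this difference in the results below was not tested. Ptprc, the pan-leukocyte marker, was under 0.1 in every library, at 5 to 11 fragments in control and 14 to 21 with GSK4112. C1qa had the lower mean with GSK4112 (0.1625 and 0.0374 FPKM, overlapping). No endothelial, oocyte or red cell marker passed the filter, but 3 of the 5 red cell markers were not in the deposited table. Oocyte markers summed to 3.19, 0.163 and 0.129 FPKM in control replicates 1, 2 and 3. With GSK4112 they summed to 0.873, 0.472 and 1.63 FPKM in the same order. Of 4 tested surface epithelium markers limma called 0 (2 at an unadjusted p under 0.05, 0 by limma-voom). Among all 12181 genes tested, 2065 had an unadjusted p under 0.05. With the block Krt18 (30.72 ± 12.17 and 9.95 ± 4.25 FPKM) was called lower and Epcam (4.37 ± 0.52 and 10.21 ± 3.37 FPKM) higher.

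Promoter windows from RefSeq (build GRCm38.p6, 250 bases before to 50 after the annotated start) were found for 8 of the 9 genes; Slc39a14 was not matched. They were searched on both strands for the core of the metal response element, TGCACNC or TGCGCNC. The windows with 2 or more cores are shown because these cores are the known contact of MTF1, with the cores in capitals. Each reads 5′ to 3′ on the gene's strand.
Mt1, chr8:94178839-94179138, plus strand: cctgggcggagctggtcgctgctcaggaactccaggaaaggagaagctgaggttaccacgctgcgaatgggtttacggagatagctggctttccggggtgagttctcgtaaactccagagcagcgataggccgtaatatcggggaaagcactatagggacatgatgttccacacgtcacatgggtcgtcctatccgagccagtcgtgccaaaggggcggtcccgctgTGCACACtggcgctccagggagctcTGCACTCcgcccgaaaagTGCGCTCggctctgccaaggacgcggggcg
Mt2, chr8:94172368-94172667, plus strand: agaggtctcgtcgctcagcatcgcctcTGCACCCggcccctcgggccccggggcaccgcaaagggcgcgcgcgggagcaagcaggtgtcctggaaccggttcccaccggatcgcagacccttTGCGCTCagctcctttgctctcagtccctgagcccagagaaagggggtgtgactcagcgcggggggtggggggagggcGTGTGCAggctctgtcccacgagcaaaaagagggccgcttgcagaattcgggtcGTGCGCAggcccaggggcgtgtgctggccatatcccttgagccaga
Slc30a1, chr1:191906531-191906830, plus strand: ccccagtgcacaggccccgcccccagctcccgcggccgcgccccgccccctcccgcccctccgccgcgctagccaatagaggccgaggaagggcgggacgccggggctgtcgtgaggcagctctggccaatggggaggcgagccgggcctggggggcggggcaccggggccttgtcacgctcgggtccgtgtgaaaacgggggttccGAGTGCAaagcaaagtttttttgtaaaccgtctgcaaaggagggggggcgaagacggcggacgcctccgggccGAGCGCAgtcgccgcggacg

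The Mt1 window held 3 cores, all on the plus strand and starting at window bases 228, 253 and 271. These lie at -23, 2 and 20 bases from the annotated start, so the last 2 fall after it. The Mt2 window held 4 cores and the Slc30a1 window 2. The Slc30a5 window held 1, and the windows of Mtf1, Slc39a1, Slc39a7 and Slc39a10 (which has 2 windows) held 0. Of all 32851 windows in the RefSeq table, 25.7% held at least 1 core, 7.11% at least 2 and 1.97% at least 3. AGGTCA, the hexamer to which REV-ERB receptors bind next to an AT-rich flank, was in 0 of the 9 windows of these genes and in 16.3% of all windows. The antioxidant element core TGACNNNGC was in the windows of Mt2, Slc30a1, Slc30a5 and Slc39a1, 1 match each, and in 12.4% of all windows. These matches describe letters and are not shown to be bound in these cells.

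Mt1 was the member with the largest difference. It encodes the metallothionein that most mouse cells raise when zinc, cadmium or stress hormones rise (ENSMUSG00000031765; GRCm38 chromosome 8, 94179082 to 94180327, plus strand). Its level was 122.1, 184.1 and 112.2 FPKM in control replicates 1, 2 and 3, and 357.5, 388 and 439.2 FPKM in GSK4112 replicates 1, 2 and 3. The lowest GSK4112 library thus lay well above the highest control library, and the groups did not overlap. The means were 139.5 ± 38.96 and 394.9 ± 41.25 FPKM (SD, n = 3), a ratio of 2.83. By replicate number the ratios were 2.93, 2.11 and 3.91.

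On the log2(FPKM + 1) scale Mt1 was higher by 1.52 ± 0.198 (SE). These values rest on 2326 to 3959 fragments per control library and 7531 to 9512 per GSK4112 library. Ranked by mean FPKM among all genes of the table, Mt1 was number 278 in control and number 68 with GSK4112. No transcript of another gene matched an Mt1 transcript at 95% identity or more, and none of its exon bases lay in another annotated gene. In bulk RNA a change in the number of cells of a type and a change in RNA per cell cannot be told apart. The difference did not rest on the replicate 1 libraries: without both, it was 1.515 (log2).

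Mt2, the neighbouring gene for the other widely expressed metallothionein (ENSMUSG00000031762; chromosome 8, 94172664 to 94173568, plus strand), was listed at 0 FPKM in all 3 control libraries and in GSK4112 replicates 2 and 3. GSK4112 replicate 1 was at 0.101 FPKM, which is 1 fragment. Over the 6 libraries Mt2 thus had 1 fragment and Mt1 34096. Of the 588 exon bases of Mt2 in GENCODE M21, 432 (73.5%) lie in exons of Gm45774, an antisense gene on the other strand, which itself was at 0 to 0.0432 FPKM. The remaining 156 bases belong to Mt2 alone.

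Slc39a7 showed the same combination of a near-zero value and shared exons. It encodes ZIP7, which releases zinc from the endoplasmic reticulum and Golgi (ENSMUSG00000024327; chromosome 17, 34028269 to 34031682, minus strand). It was at 0.17, 0.067 and 0.162 FPKM in control replicates 1, 2 and 3 and at 0.137, 0.0931 and 0.177 FPKM in GSK4112 replicates 1, 2 and 3, or 3 to 8 fragments per library. Of its 2584 exon bases, 2084 (80.7%) lie in Gm20427, a transcript on the same strand that is not among the IDs of the table used here.

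Among the 7 measured members the share of exon bases in another gene was 0% for Mt1, Slc30a5, Slc39a1, Slc39a10 and Slc39a14, 8.09% for Mtf1 and 8.92% for Slc30a1. Over all protein-coding genes of the table, a mean under 1 FPKM was found for 127 of 143 genes (88.8%) with at least 70% of exon bases shared. It was found for 4507 of 11354 genes (39.7%) with none shared. Low values also occurred without such overlap: of the 8 other family genes under 1 FPKM, the largest share was 9.13%, that of Slc30a10. No source used here says how fragments in 2 overlapping genes were counted, and the part of the overlap in these low values was not tested. No level of Mt2 or Slc39a7 mRNA in the cells, and no difference between the groups, was therefore read from their values.

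**Figure D1:**
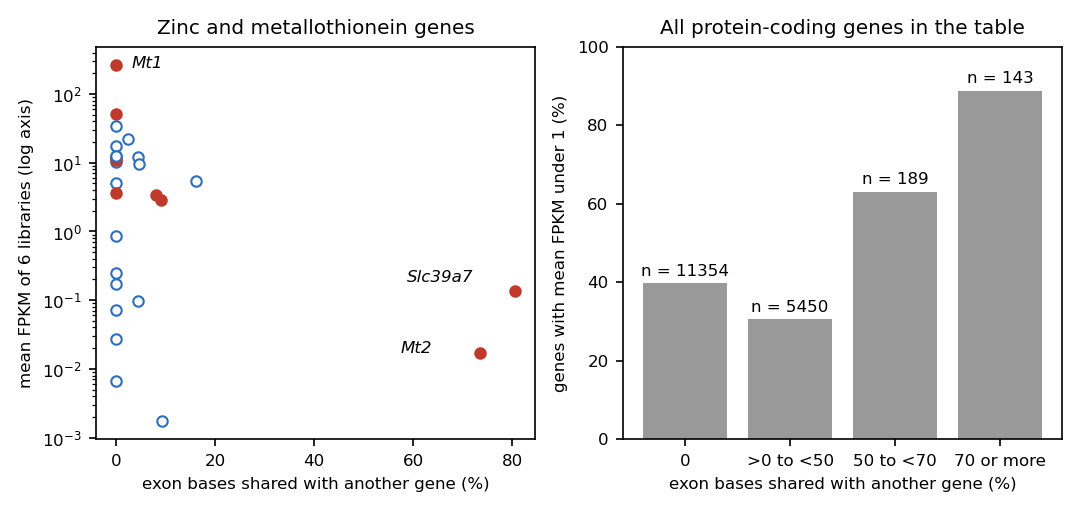
Left: mean FPKM of the 6 libraries (log axis) against the percentage of exon bases that lie in another annotated gene, for the zinc and metallothionein genes (filled: the 9 genes described; open: other family genes). Right: percentage of all protein-coding genes with a mean under 1 FPKM, by the same percentage of shared bases. It was 39.7% with none shared (11354 genes), 30.5% above 0 and under 50% (5450 genes) and 63.0% at 50 to under 70% (189 genes). At 70% or more it was 88.8% (143 genes), and Mt2 and Slc39a7 are the 2 zinc genes in that range.

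Mtf1 (ENSMUSG00000028890; chromosome 4, 124802104 to 124849800, plus strand), the gene of the zinc-sensing factor itself, was at 2.98, 3.13 and 3.73 FPKM in control replicates 1, 2 and 3. With GSK4112 it was at 3.88, 3.397 and 3.09 FPKM in the same order. The groups overlapped, and the log2 difference was 0.06 ± 0.12 (SE). Its sign turned to -0.06 without both replicate 1 libraries. The Mtf1 values rest on 478 to 584 fragments per library.

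Slc30a1 encodes ZnT1, the exporter of the plasma membrane and a known MTF1 target (ENSMUSG00000037434; chromosome 1, 191906767 to 191913247, plus strand). It was at 2.78, 1.75 and 1.95 FPKM in control replicates 1, 2 and 3, and at 3.97, 3.41 and 3.20 FPKM in GSK4112 replicates 1, 2 and 3. All 3 GSK4112 libraries lay above all 3 control libraries. The means were 2.16 ± 0.55 and 3.53 ± 0.397 FPKM, a ratio of 1.63, and the ratios by replicate number were 1.43, 1.95 and 1.64. The log2 difference on the log2(FPKM + 1) scale was 0.53 ± 0.154 (SE), which that scale understates at such a low level, and with a pseudocount of 0.1 it was 0.70. Its counts were low, with 158 to 265 fragments per control library and 292 to 352 per GSK4112 library.

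Slc30a5 encodes ZnT5, which loads zinc into the early secretory pathway together with ZnT6 (ENSMUSG00000021629; chromosome 13, 100802648 to 100833427, minus strand). Its 10.47, 12.42 and 13.04 FPKM in control and 10.69, 11.19 and 11.87 FPKM with GSK4112 (replicates 1, 2 and 3) overlapped. It was the 1 measured member with a mean below control, by a log2 difference of -0.08 ± 0.101 (SE).

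Among the importers, Slc39a1, the gene of the plasma membrane importer ZIP1 (ENSMUSG00000052310; chromosome 3, 90248172 to 90253612, plus strand), was the most abundant zinc transporter gene per length. It was at 56.21, 51.2 and 42.89 FPKM in control replicates 1, 2 and 3 and at 53.6, 49.3 and 53.71 FPKM with GSK4112, and the groups overlapped (log2 difference 0.07 ± 0.113 SE). Without control replicate 3 the difference was -0.04. A processed copy of the gene, Slc39a1-ps, matches 41.2% of a Slc39a1 transcript at 97.7% identity, so a part of its value is uncertain, although the copy itself reached at most 0.671 FPKM.

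Slc39a10 encodes ZIP10, an importer that MTF1 is known to repress when zinc is high (ENSMUSG00000025986; chromosome 1, 46807544 to 46892852, minus strand). It was at 10.32, 10.37 and 9.85 FPKM in control and at 11.02, 12.37 and 11.4 FPKM with GSK4112. The groups did not overlap, with GSK4112 above control, and the ratio of the means was 1.14 (log2 difference 0.17 ± 0.0789 SE). Slc39a14 encodes ZIP14, which carries zinc, iron and manganese (ENSMUSG00000022094; chromosome 14, 70303469 to 70351425, minus strand). Its 4.13, 2.78 and 3.88 FPKM in control and 4.21, 3.73 and 3.44 FPKM with GSK4112 overlapped (0.07 ± 0.145 SE), and without control replicate 2 the difference was -0.07.

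**Figure D2:**
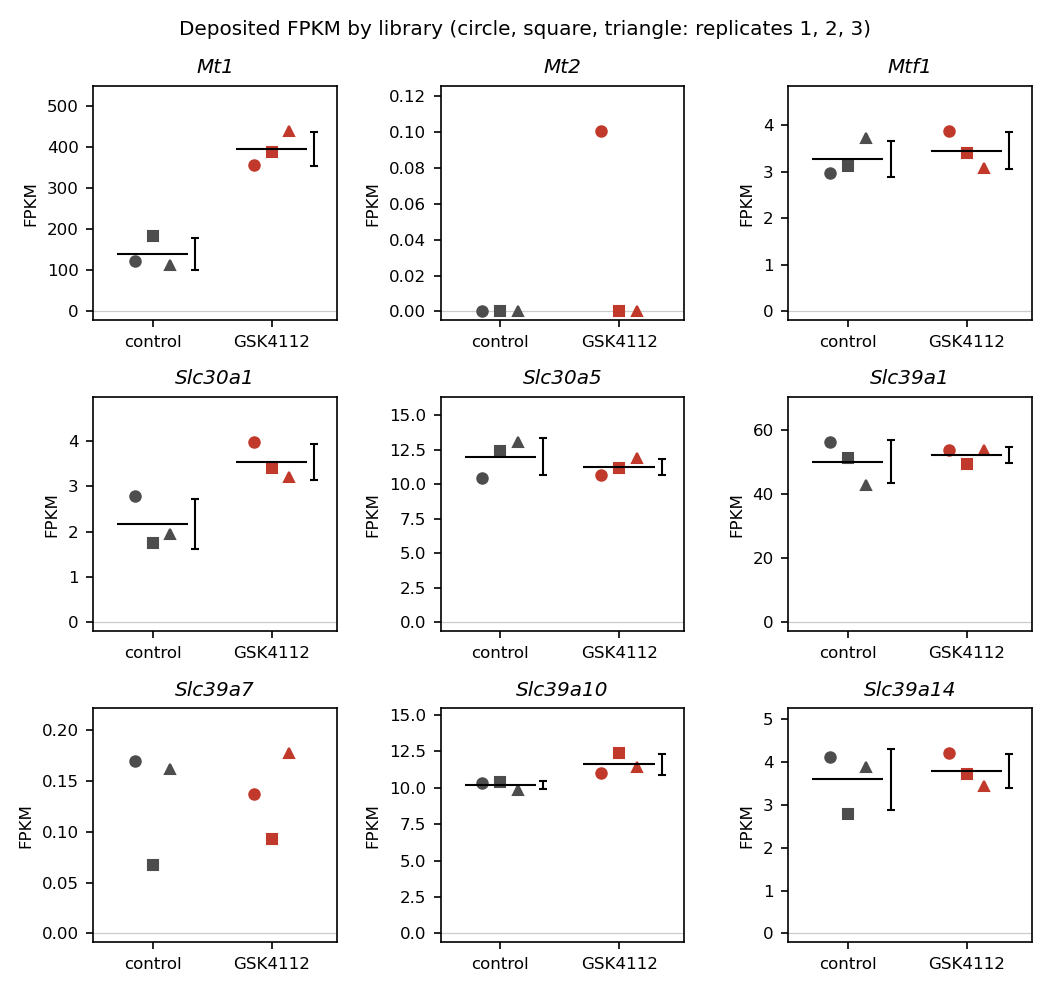
FPKM of each of the 9 genes in the 6 libraries, control in grey and GSK4112 in red, with replicates 1, 2 and 3 as circle, square and triangle; for the 7 genes in the fit the line is the mean and the bar its SD (n = 3). Mt1 goes from 112.2 to 184.1 in control to 357.5 to 439.2 with GSK4112, while Mt2 and Slc39a7 stay at or near 0 on axes of their own.

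In control the order of levels per length was Mt1, Slc39a1, Slc30a5, Slc39a10, Slc39a14, Mtf1 and Slc30a1. Slc39a14 and Mtf1 overlapped there, and Slc30a1 was the lowest in every control library. With GSK4112 the ranges of Slc39a14, Mtf1 and Slc30a1 all overlapped, as did those of Slc30a5 and Slc39a10. Mt1 and Slc39a1 stood apart from their neighbours in both groups.

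Of the 7 measured members, 1 (Mt1) was called higher and 0 lower by limma with a Benjamini-Hochberg adjusted p under 0.05. Over all genes tested, 50 of 12181 (0.41%) were called higher and 76 (0.624%) lower; with median-of-ratios scaling the calls were 44 higher and 117 lower. With a block for the replicate number, which no label says is a pairing, Slc30a1 was called higher as well as Mt1 and 0 members lower. That fit called 6.89% of all genes, 3.07% higher and 3.82% lower. Leaving out control replicate 1, control replicate 3, GSK4112 replicate 2 or GSK4112 replicate 3 each ended the call of Mt1, with its log2 difference at 1.39 to 1.53. In 3 members (Mt1, Slc30a1 and Slc39a10) the GSK4112 libraries all lay above the control libraries, as in 15.7% of all genes, and in 0 all lay below, as in 7.9%. Since the same contrast was in view when the genes were listed, nothing is read from these counts. The median log2 difference of the 7 members was 0.07, and that of all genes tested was 0.05.

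The complete families were looked at next, since their names and not their values define them. Of 18 further Mt, Slc30a and Slc39a genes in the table, 10 were tested, and limma called 0 of them, with 4 at an unadjusted p under 0.05, 0 called by limma-voom on recovered fragments and 0 with the block. Over all genes tested, limma called 1.03%, and the fit with the block 6.89%. An unadjusted p under 0.05 was found for 2065 of 12181 genes, and limma-voom called 170 of 12170. The same backgrounds apply to such counts in the lists below. For the 10 genes the median log2 difference was 0.12, and 7 of the 10 means lay above control, against 60.9% of all genes tested. Mt3, a metallothionein gene best known from brain, was at 5.84 ± 0.794 and 4.23 ± 0.652 FPKM (SD, n = 3; limma adjusted p = 0.219), with all GSK4112 libraries below control, the opposite side to Mt1.

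Each of the 8 tested Slc39a importer genes had a higher mean with GSK4112, as had 60.9% of all genes tested, and 0 of 8 were called (limma; 3 at an unadjusted p under 0.05, 0 by limma-voom). They include the 3 members Slc39a1, Slc39a10 and Slc39a14, and the signs held under each scaling tried, with the lowest value, that of Slc39a1 with median-of-ratios scaling, at 0.0034. With 1 library left out the signs did not all hold. Slc39a1 was at -0.04 without control replicate 3, and Slc39a14 at -0.07 without control replicate 2. In 4 of the 8 the GSK4112 libraries all lay above control, as in 15.7% of all genes tested. Besides Slc39a10 these were Slc39a3 (11.17 ± 0.747 and 14.29 ± 0.83 FPKM, log2 difference 0.33 ± 0.0859 SE, limma adjusted p = 0.1324), Slc39a13 (10.71 ± 1.27 and 13.24 ± 0.415, adjusted p = 0.2179) and Slc39a9 (8.84 ± 0.731 and 10.43 ± 0.347, adjusted p = 0.2739). ZIP13 and ZIP9, which the last 2 encode, act in the secretory pathway. The second most abundant importer gene was Slc39a6, at 32.7 ± 3.29 and 35.97 ± 2.06 FPKM (adjusted p = 0.516), followed by Slc39a11 at 16.21 ± 1.18 and 18.52 ± 2.0 FPKM (adjusted p = 0.4352). The median log2 difference of the 8 genes was 0.17, and that of all genes tested was 0.05.

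The 6 tested Slc30a exporter genes were divided, 3 above control (Slc30a1, Slc30a6 and Slc30a7) and 3 below (Slc30a4, Slc30a5 and Slc30a9). Limma called 0 of the 6 (1 at an unadjusted p under 0.05, 0 by limma-voom), and 1, Slc30a1, was called with the block. Slc30a4, the most abundant, was at 23.39 ± 3.37 and 21.28 ± 2.95 FPKM (adjusted p = 0.6871). Slc30a9 was at 13.07 ± 1.3 and 11.77 ± 0.302 FPKM (adjusted p = 0.4886), with all GSK4112 libraries below control. Their median log2 difference was -0.0086.

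**Figure D3:**
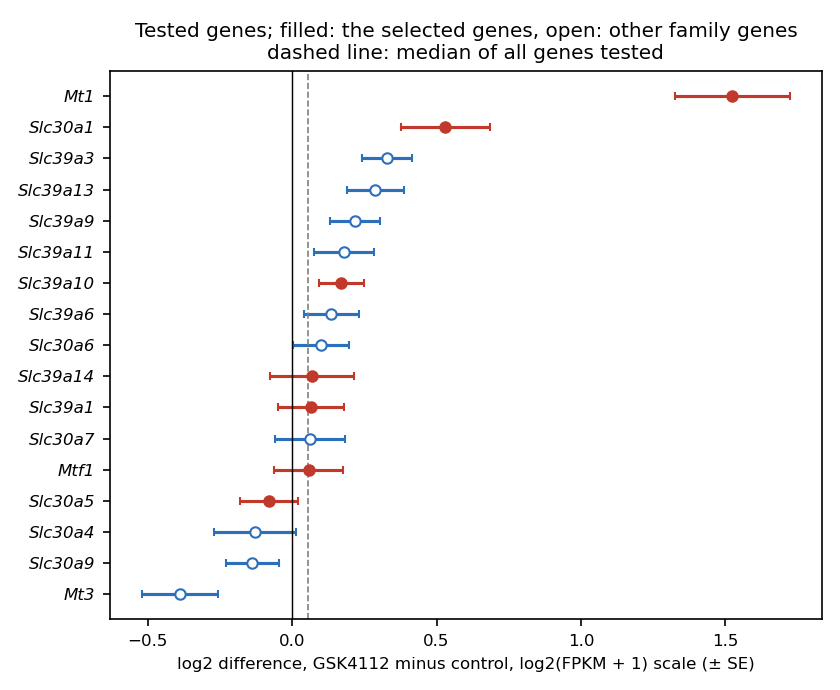
Log2 differences (GSK4112 minus control, log2(FPKM + 1) scale, bar = SE of limma) of the 17 tested genes, with the selected genes filled and other family genes open. Mt1 at 1.52 and Slc30a1 at 0.53 lie farthest to the right and Mt3 at -0.39 farthest to the left; the dashed line is the median of all genes tested, 0.0543.

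Other lists that bear on these genes were counted in the same fit. Of 11 genes on which MTF1 is known to act, 8 were tested and 2 rose, Mt1 and the iron exporter gene Slc40a1 (18.92 ± 3.7 to 40.64 ± 3.09 FPKM, log2 difference 1.08 ± 0.145 SE, limma adjusted p = 0.0368). Over all genes tested 0.41% were called higher, and Mt1 was listed with its difference already known. With the block, which called 3.07% of all genes higher, Slc30a1 was called too, giving 3. The other 5 tested genes were called in neither fit. The list's median log2 difference was 0.28, and that of all genes tested was 0.05. This median mixes raised targets with Slc39a10, which MTF1 is known to repress. Of the 8 tested genes 6 lay above control in mean log2 level, against 60.9% of all genes, and 2 below. The 2 were Selenow (125.8 ± 1.51 and 104 ± 12.8 FPKM, no overlap) and Ndrg1 (7.01 ± 8.06 and 2.51 ± 0.155 FPKM, overlapping). Both are named after their values were seen.

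Of 10 tested genes of zinc supply to the early secretory pathway 0 were called (limma; 2 at an unadjusted p under 0.05, 0 by limma-voom). Csnk2b and Csnk2a1, subunits of the kinase CK2 that opens ZIP7, were at 43.25 ± 3.0 and 44.92 ± 5.36 FPKM and at 25.68 ± 1.15 and 25.71 ± 0.989 FPKM. Of 9 tested copper genes 0 were called (1 at an unadjusted p under 0.05, 0 by limma-voom). The most abundant were Sod1, of copper-zinc superoxide dismutase (291.9 ± 41.27 and 343.5 ± 44.85 FPKM), and the copper chaperone gene Atox1 (75.01 ± 16.89 and 72.8 ± 4.86 FPKM).

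Glucocorticoids and oxidative stress are known inducers of metallothionein genes, so their response genes were counted too. Of 9 tested glucocorticoid-induced genes 0 were called (limma; 1 at an unadjusted p under 0.05, 0 by limma-voom). With the block Pdk4 was called higher and Errfi1 lower, beside 3.07% and 3.82% of all genes tested. Fkbp5 was at 90.74 ± 8.76 and 101.4 ± 6.15 FPKM and Sgk1 at 170.3 ± 62.79 and 165.9 ± 30.28 FPKM. Of 10 tested NRF2 pathway genes 0 were called (1 at an unadjusted p under 0.05, 0 by limma-voom, 0 with the block), and 8 of the 10 means lay above control, against 60.9% of all genes. Hmox1, heme oxygenase, was at 80.86 ± 59.33 and 105.7 ± 16.79 FPKM and Txnrd1, thioredoxin reductase, at 66.43 ± 16.73 and 76.59 ± 7.24 FPKM. The members with the widest separation, named after their values were seen, were Nqo1 and Slc7a11. Nqo1, a quinone reductase gene, was at 2.41, 5.26 and 2.79 FPKM in control and at 12.76, 6.73 and 7.22 FPKM with GSK4112, with no overlap (log2 difference 1.15 ± 0.302 SE, limma adjusted p = 0.134). Slc7a11, the cystine importer gene, was below the filter and not tested. It had 21, 29 and 31 fragments in control replicates 1, 2 and 3 (0.0831 to 0.134 FPKM) and 180, 104 and 118 with GSK4112 (0.451 to 0.765 FPKM), so its groups did not overlap. The median log2 difference was 0.24 for the NRF2 list and -6.09e-04 for the glucocorticoid list, beside 0.05 for all genes tested.

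The genes whose pattern over the 6 libraries was nearest to Mt1 were found by the root mean square difference of log2(FPKM + 1), each gene centred on its mean. Compared were the 7515 other genes with a mean of at least 5 FPKM, with predicted-gene and unmatched names left out. Nearest was Trib3, a pseudokinase gene of the stress response, at a difference of 0.171. Xdh, xanthine dehydrogenase of purine breakdown, followed at 0.196 and Slc27a6, a fatty acid transport protein gene, at 0.235. Trib3 was at 2.28, 3.38 and 2.52 FPKM in control and at 9.97, 7.82 and 10.34 FPKM with GSK4112. As in Mt1, control replicate 2 was the highest control library of all 3 genes. The lowest was control replicate 3 in Mt1 and control replicate 1 in the 3 genes. They were picked for likeness over these same 6 libraries, so nothing is read from the shared pattern. Xdh was at 4.62, 5.87 and 5.24 FPKM in control and at 14.19, 15.47 and 15.23 with GSK4112.

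**Figure D4:**
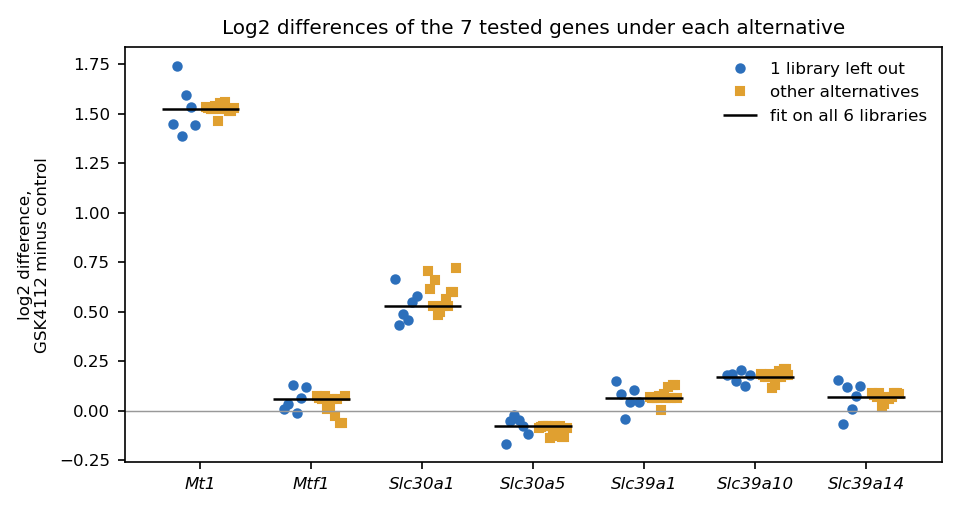
Log2 difference (GSK4112 minus control) of the 7 tested genes with all 6 libraries (line), with 1 library left out (circles) and under the other alternatives (squares). Mt1 stays between 1.39 and 1.74 and Slc30a1 between 0.44 and 0.72, while Mtf1, Slc39a1 and Slc39a14 cross 0 in some settings.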

How the data were processed

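The authors deposited FPKM values for 27151 Ensembl genes in 6 columns, 1 per library, per the file headers, and columns were matched to samples by title. The submitters' processing notes name the genome build GRCm38. The aligner, counting program, annotation and use of strand were not given in the sources used here. Symbols, coordinates and exon lengths came from GENCODE M21, which held 27098 of the IDs. FPKM times exon length gave whole fragments (within 0.01) for 92.8 to 93.1% of values under 500 fragments.

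Tests covered genes whose mean FPKM was 1 or more and used limma 3.58.1 (R 4.3.3) on log2(FPKM + 1), with a variance trend, 2-sided, Benjamini-Hochberg adjusted over 12181 genes at 0.05. The script was tested on simulated data with the same noise SD in every gene and no replicate structure. That test checked the script and does not show how the calls hold in these data. An exact permutation test of 3 against 3 cannot go below 0.1. Deviations of same-numbered libraries correlated at 0.665, 0.326 and 0.213 (limit 0.1), so a replicate block was an alternative. Control 3 with GSK4112 2 (0.53) and control 2 with GSK4112 3 (0.357) correlated more than 2 with 2 and 3 with 3, so the data separate replicate 1 from the others and do not show which of replicates 2 and 3 belong together; no label gives a pairing. Other alternatives were pseudocounts, filters, scalings, the variance trend, sample weights, libraries left out and, chosen after seeing the data, limma-voom on recovered fragments. Promoter and transcript matches used RefSeq and BLAST 2.17.0.

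The genes, lists and tests were chosen with earlier results of these data known. Named were every member, family genes with a call, no overlap or the highest level, up to 3 called rises and falls or the 2 most abundant of each list, and the 3 genes nearest to Mt1; for Mt2 no pattern could be compared. Theca, stroma and immune markers (5 tested) had 0 calls in limma (1 at an unadjusted p under 0.05, 0 by limma-voom).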

Additional observations from a re-analysis of the deposited data

How the results depend on the processing

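With limma, 126 genes were called over all genes, 1 of the 7 measured members and 1 of the 16 tested family genes. Without a filter 26, 0 and 0 were called (2890, 3 and 7 at an unadjusted p under 0.05), and with sample weights 830, 2 and 3. With the replicate block 839, 2 and 2 were called, without both replicate 1 libraries 856, 2 and 2, and with both choices together 1139, 2 and 2. The second member called in these 4 settings was Slc30a1. Leaving out 1 library gave 0 to 153 genes, 0 to 1 members and 0 to 1 family genes. The calls over all genes were 0 without control replicate 3, GSK4112 replicate 2 or GSK4112 replicate 3 (1843, 1224 and 1318 at an unadjusted p under 0.05) and 8 without control replicate 2. The cause was not tested. The count of members called stayed at 1 under the other pseudocounts, the filter at 5, the scalings, no trend and limma-voom.

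Mt1 lay between 1.39 and 1.74 (log2) over its 19 alternatives and was called in 14, and Slc30a1 lay between 0.44 and 0.72 over 18 and was called in 4. No member moved by more than the SD between replicates. Mtf1 changed sign in 4 alternatives, Slc39a1 in 1 and Slc39a14 in 1. Slc30a1 rests on 158 to 352 fragments per library, and Mt2 and Slc39a7 (0 to 8) could not be compared.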
